A study of Canis lupus familiaris with 21 samples.

Results

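The comparison set out here is that of the prefrontal cortex of dogs with canine cognitive dysfunction (CCD) against the prefrontal cortex of young dogs, read gene by gene from polyadenylated RNA. It takes the 6 cortex libraries whose labels give the condition CCD or young, of 21 libraries in the series. The CCD group is libraries cortex_163, cortex_354 and cortex_358, and the young group is cortex_270, cortex_353 and cortex_377. Values below follow these orders. The 3 libraries of old dogs without the CCD label, cortex_250, cortex_253 and cortex_264, share the model and are shown for reference. The series was made from companion dogs, and the labels name no strain, transgene or treatment. The labels used here state no age, breed or sex for a library and do not say that each library is a separate dog, so p-values measure the spread between these libraries. CCD is a disease of aged dogs, and in this contrast the disease state and the years between the groups cannot be told apart.

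CCD is a decline of memory, orientation and sleep pattern in aged dogs, studied as a natural counterpart of Alzheimer's disease because amyloid also builds up in the canine cortex. The prefrontal cortex holds excitatory projection neurons and inhibitory interneurons that use GABA, with oligodendrocytes that wrap axons in myelin, astrocytes, microglia and vessels. When neurons fire, they switch on transcription factors within minutes (immediate early genes) and, later, secreted and scaffold proteins that adjust the synapse, so the level of these transcripts follows recent activity and also the handling of tissue.

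Recovered totals were 18266241, 14923391 and 18876635 reads in CCD libraries, against 22251323, 22832188 and 31363933 reads in young libraries, so each CCD library was shallower than each young one. In mega (M) reads the means were 17.4 ± 2.13 in CCD and 25.5 ± 5.10 in young libraries (SD, n = 3 each; exact permutation test, two-sided, p = 0.1, the smallest that 3 against 3 allows, and 0.3 after Benjamini-Hochberg adjustment over 3 library measures). SLC17A7, a vesicular glutamate transporter of cortical excitatory neurons, was well detected in every library. It had 8713, 10424 and 9982 normalised counts in CCD libraries and 11685, 10475 and 21508 in young libraries. Young libraries were less alike (Spearman's rho of 0.908 to 0.934 across genes) than CCD libraries (0.957 to 0.971), and single CCD and young libraries correlated at 0.892 to 0.978. Fibroblast and meningeal markers stood high in CCD cortex_358, young cortex_353 and young cortex_377, with a median level 3.01, 3.67 and 3.15 above the mean of the 9 cortex libraries on the log2 scale, and at -1.52 to -0.81 in the other CCD libraries and -2.91 in young cortex_270. COL1A1, a collagen of fibroblasts, had 106, 55.5 and 1781 normalised counts in CCD libraries and 83.8, 7432 and 2876 in young libraries. Young cortex_377 had the lowest ribosomal protein, myelin and mitochondrial levels of the 6, and young cortex_270 the highest heat shock level (0.85 against -0.33 to -0.08 in the other 5).

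**Figure D1:**
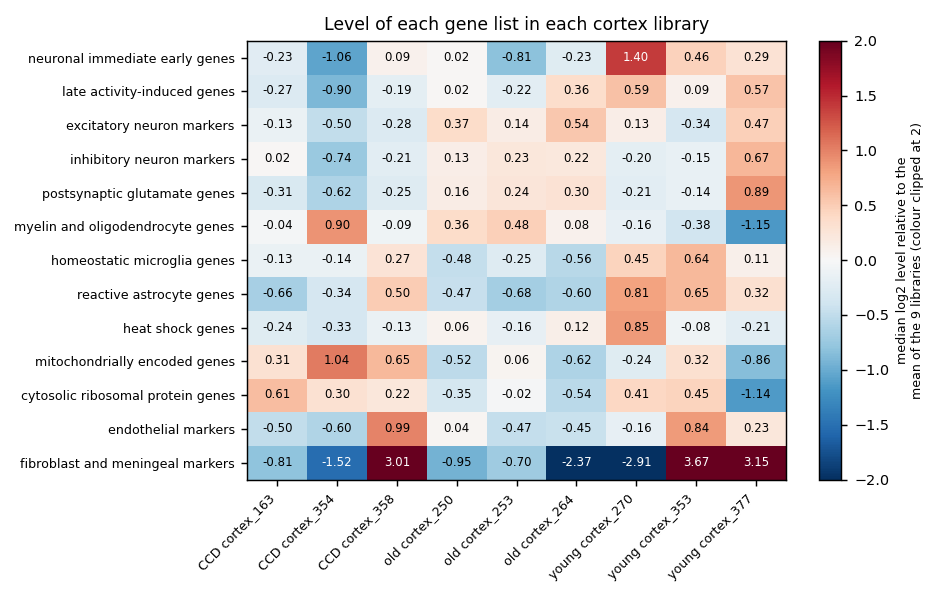
Median log2 level of the members of 13 gene lists in each of the 9 cortex libraries, relative to the mean of those libraries; columns run from CCD through old to young, and colour is clipped at 2 while the printed values are not. The meningeal row is high in CCD cortex_358 (3.01), young cortex_353 (3.67) and young cortex_377 (3.15), and the immediate early gene row is highest in young cortex_270 (1.40).

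Of 34981 genes, 19010 had a mean of at least 10 normalised counts over the 9 cortex libraries and were tested with limma on log2 of the value plus 1. No gene passed a Benjamini-Hochberg adjusted p of 0.05 in either direction (0% of genes tested each way), and the smallest adjusted p was 0.363. At an unadjusted (nominal) p under 0.05, 786 genes were higher in CCD (4.13%) and 1661 lower (8.74%). All CCD libraries lay above all young libraries for 1003 genes (5.28%) and below them for 1562 (8.22%). The median gene had a log2 fold change of -0.09, with 42.9% of genes on the higher and 57.1% on the lower side. The excess of lower genes depended on scaling: 67.9% of the genes at a nominal p under 0.05 were lower as deposited, 48.5% after centring each library on its median gene, 52.7% after TMM scaling and 47.3% after quantile normalization, where 1241 genes were higher and 1115 lower.

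DESeq2, run on the recovered reads, called 208 genes at an adjusted p under 0.05, 89 higher in CCD (0.468%) and 119 lower (0.626%), and edgeR's quasi-likelihood test called none (964 higher and 1496 lower nominally; smallest adjusted p 0.346). Of the 208, 195 had CCD and young libraries that did not overlap. The DESeq2 calls leaned on single libraries: 17 of the 208 were still called without CCD cortex_354, 50 without CCD cortex_163 and 73 without young cortex_377, against 176 to 204 without any one of the other 3. In all 6 such fits 9 genes were called, 3 of them named below (IL12RB2, ARRDC2 and CXADR). Among other genes named below, the call held in 1 of these fits for SOX11 and in 2 for NPAS4, PDYN and MET. It held in 3 for GAD2, ADARB2, VCAM1, BCAS1, FRMD6, RBM24 and ND6. Genes below are therefore given as values, nearly all with their limma standard error. That error pools the spread of all 9 cortex libraries. The old libraries among them were more alike (Spearman's rho of 0.982 to 0.985) than the CCD or young ones. A DESeq2 call is stated where there was one, and the limma adjusted p of every gene named was 0.363 or above. Where members of a list are counted as higher or lower with no threshold beside them, the count is at the nominal p. Over all tested genes 4.13% were higher and 8.74% lower at that p. CCD libraries lay wholly above young ones for 5.28% and wholly below for 8.22%. A list count near these shares is what all genes show.

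**Figure D2:**
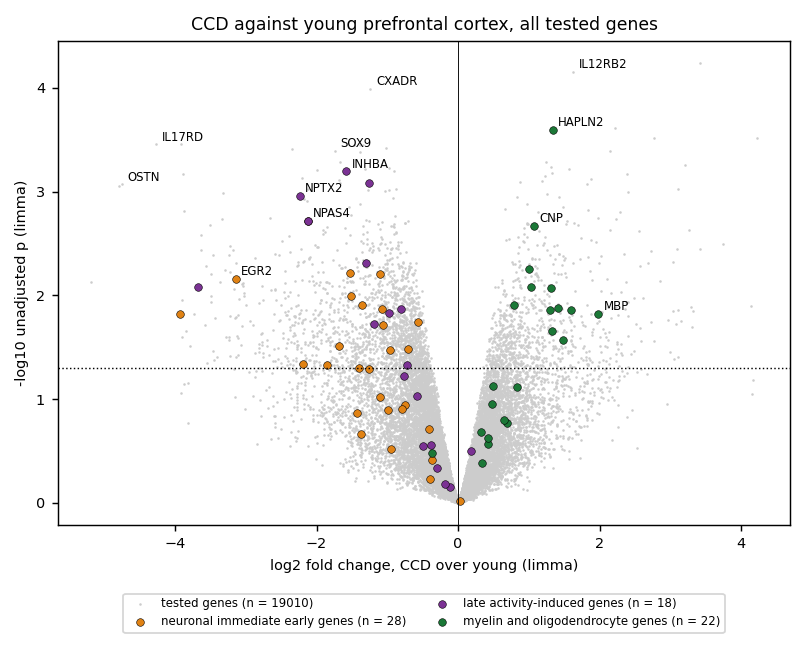
Log2 fold change of CCD over young (horizontal) against -log10 of the unadjusted limma p (vertical) for 19010 tested genes, with the members of 3 lists coloured and a dotted line at the nominal threshold. Immediate early and late activity-induced genes lie almost wholly left of 0, with medians of -1.10 and -0.79, and myelin genes right of it, with a median of 0.92. NPAS4, in both activity lists, has the colour of the late list.

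Genes that neurons switch on with activity made the group with the lowest median on the CCD side. Old libraries without the CCD label were about as low. The median immediate early level, relative to the mean of the 9 libraries, was -0.23, -1.06 and 0.09 in CCD libraries. It was 0.02, -0.81 and -0.23 in old libraries, inside the CCD range, and 1.40, 0.46 and 0.29 in young libraries. All 28 listed immediate early genes were tested. Of these, 27 had a negative fold change and the median was -1.10. At the gene level, 16 had a nominal p under 0.05 on the lower side and none on the higher side. For 12 of the 28, the CCD libraries lay wholly below the young ones, against 8.22% of all tested genes. NPAS4, a neuron-specific transcription factor induced by calcium entry, had 29.0, 17.0 and 37.8 normalised counts in CCD libraries, 66.0, 38.1 and 35.1 in old libraries and 209, 64.5 and 125 in young libraries. Every CCD library was below every young one, and the old libraries reached into the young range with 66.0. The log2 fold change of CCD over young was -2.13 ± 0.52 (DESeq2 adjusted p = 0.0181). In bulk tissue, fewer cells of a type and less RNA per cell cannot be told apart, here and in every group below.

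EGR2 and EGR3 encode zinc finger factors of the same early wave. EGR2 had 197, 15.4 and 166 normalised counts in CCD libraries and 1507, 411 and 601 in young libraries, without overlap but with CCD cortex_354 far below the other CCD libraries, for a log2 fold change of -3.14 ± 0.95. Old libraries had 191, 32.4 and 146, inside the CCD range. EGR3 had 1333, 599.8 and 980.0 in CCD libraries and 1911, 1393 and 2943 in young libraries, also without overlap, for -1.11 ± 0.33. Its old values of 1245, 1011 and 1317 were inside the CCD range as well. FOSL2, a subunit of the AP-1 factor, had 828, 570.5 and 1860.1 in CCD libraries, 2138, 1460 and 2523 in old libraries and 3623, 1547 and 3773 in young libraries. CCD cortex_358 was above young cortex_353, and the CCD over young fold change was -1.53 ± 0.45. The widely used activity markers FOS and ARC were added after their values were seen. FOS had 847, 214 and 845 normalised counts in CCD libraries, 799, 148 and 387 in old libraries and 6734, 1218 and 876 in young libraries. The young library cortex_270 stood apart, and the fold change of -1.85 ± 0.83 went to -0.95 without it. ARC, which encodes a protein that trims AMPA receptors from synapses, had 1357, 586 and 908 in CCD libraries, 1356, 626 and 1221 in old libraries and 1599, 2873 and 1445 in young libraries. CCD and young did not overlap, and the fold change was -1.07 ± 0.39.

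Late activity-induced genes, which act at the synapse, were low in CCD together with the early wave. Their median level was -0.27, -0.90 and -0.19 in CCD libraries, 0.02, -0.22 and 0.36 in old libraries and 0.59, 0.09 and 0.57 in young libraries. NPAS4 is in both lists. Of 18 listed and tested, 17 had a negative fold change with a median of -0.79. Nominally, 10 had a p under 0.05 on the lower side, 10 had groups that did not overlap, and DESeq2 called 5 as lower and none as higher. NPTX2, a secreted pentraxin that gathers AMPA receptors at excitatory synapses onto interneurons, had 713, 228 and 540.0 normalised counts in CCD libraries, 748, 303 and 779 in old libraries and 2771, 1167 and 2881 in young libraries. No CCD or old library reached the lowest young value. The CCD over young fold change was -2.24 ± 0.51 (DESeq2 adjusted p = 0.00659), and it lay between -2.66 and -1.76 with each library left out.

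INHBA, the activin A subunit that neurons release after activity, had 262, 146 and 188 normalised counts in CCD libraries, 142, 98.1 and 139.7 in old libraries and 727, 688 and 386 in young libraries. The CCD libraries were above the old ones and below the young ones, with a CCD over young fold change of -1.58 ± 0.33 (DESeq2 adjusted p = 0.00734). HOMER1, whose product links metabotropic glutamate receptors to the postsynaptic scaffold, had 1392, 1186 and 1448 in CCD libraries, 2132, 1962 and 2698 in old libraries and 3004, 2208 and 4995 in young libraries. The 3 CCD values were the lowest of the 9, and the fold change was -1.26 ± 0.28 (DESeq2 adjusted p = 0.0122). PTGS2, the inducible cyclooxygenase, had 0, 0 and 12.2 in CCD libraries and 56.9, 32.2 and 13.2 in young libraries, where a value of 0 allows up to 3 reads, or 3.78 and 4.63 normalised counts in the CCD libraries listed at 0. BDNF, the neurotrophin of the same programme, had 137, 125 and 151 in CCD libraries and 185, 158 and 301 in young libraries, for -0.59 ± 0.32 (limma adjusted p = 0.436).

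OSTN, osteocrin, an activity-induced secreted peptide of primate cortical neurons, had 0, 0 and 6.09 normalised counts in CCD libraries, 5.01, 7.62 and 8.57 in old libraries and 130.3, 72.6 and 13.2 in young libraries. CCD values were below all young values, but young cortex_377 was close to the old range. The fold change of -4.75 ± 1.04 (DESeq2 adjusted p = 0.00661) depends on the pseudocount because CCD values are at or near 0. PDYN, the precursor of the opioid dynorphin, had 103, 86.3 and 245 in CCD libraries and 891, 229 and 599 in young libraries, where CCD cortex_358 was above young cortex_353, with -1.93 ± 0.54 (DESeq2 adjusted p = 0.0342). TAMALIN, a scaffold that carries metabotropic glutamate receptors, had 911, 631 and 780.1 in CCD libraries and 1784, 1340.3 and 1559 in young libraries, a tight separation of -1.02 ± 0.20 (DESeq2 adjusted p = 0.00797). OSTN and TAMALIN are in neither activity list and were named for the size or the p of their difference. PDYN was named from the neuropeptide list. Of the 12 tested neuropeptide genes 10 had a negative fold change. The fold changes ran from -1.93 to 2.66 with a median of -0.26. At a nominal p under 0.05, 1 was lower and none higher, near the 8.74% lower among all tested genes.

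The size of the activity gene difference rested partly on 2 libraries. The median of the immediate early genes was -0.89 without CCD cortex_354 and -0.90 without young cortex_270, against -1.34 to -1.26 without any one of the other 4, and the members at a nominal p under 0.05 on the lower side numbered 8 and 7 without those 2 libraries. Late genes had a median of -0.52 and 6 such members without CCD cortex_354, and -1.01 to -0.75 without any other library. Without the 3 libraries of high meningeal level, which leaves young cortex_270 as the only young library, the medians were -2.16 for the early and -1.23 for the late genes.

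**Figure D3:**
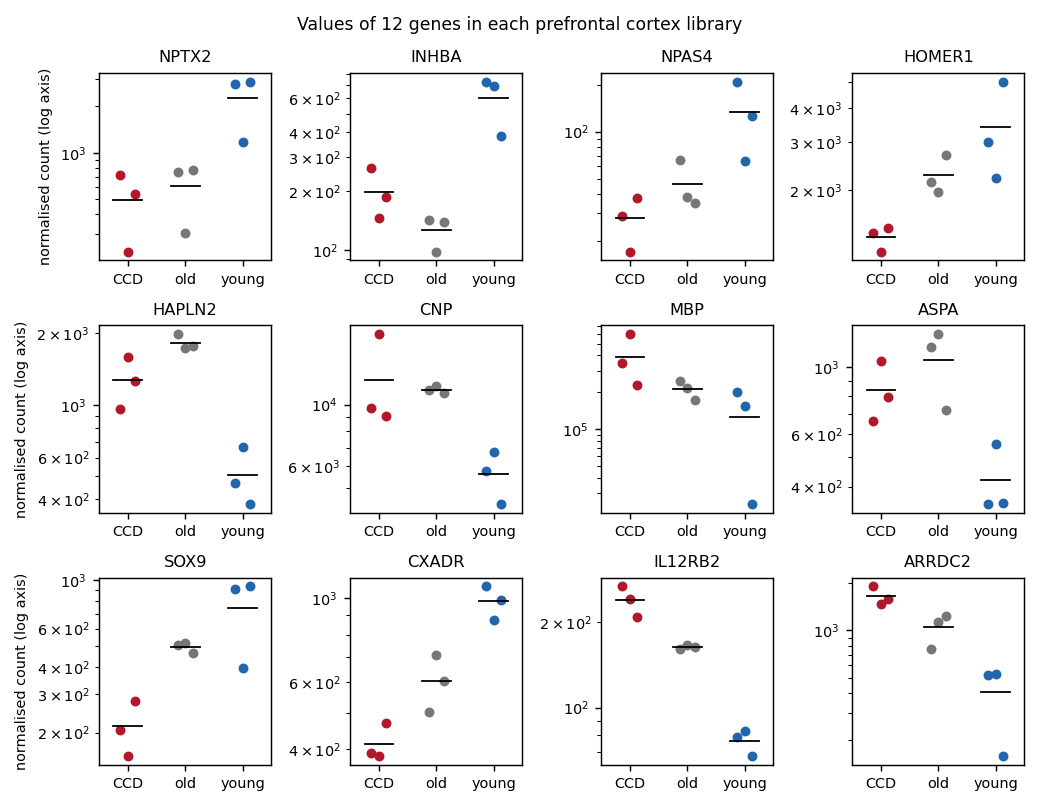
Normalised counts (log axes, each with its own range) of 12 genes in the CCD, old and young cortex libraries; each point is a library and the bar is the group mean. CCD points lie wholly below young points for NPTX2, INHBA, NPAS4, HOMER1, SOX9 and CXADR, and wholly above them for HAPLN2, CNP, MBP, ASPA, IL12RB2 and ARRDC2.

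Myelin and oligodendrocyte genes were the list with the highest median in CCD. Their median level was -0.04, 0.90 and -0.09 in CCD libraries and -0.16, -0.38 and -1.15 in young libraries. Old libraries without the CCD label, at 0.36, 0.48 and 0.08, were inside the CCD range. Of 26 listed, 23 were in the table and 22 were tested. Of these, 21 had a positive fold change and the median was 0.92. Singly, 12 had a nominal p under 0.05 on the higher side and none on the lower side. For 8 of the 22 the groups did not overlap, all on the higher side, against 5.28% of all tested genes. DESeq2 called 3. HAPLN2, which anchors the matrix at nodes of Ranvier, had 957, 1583 and 1264 normalised counts in CCD libraries, 1986, 1736 and 1762 in old libraries and 468, 662 and 382 in young libraries. The CCD libraries lay above all young and below all old libraries, and the fold change over young was 1.34 ± 0.25 (DESeq2 adjusted p = 0.00196).

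CNP, the cyclic nucleotide phosphodiesterase that keeps cytoplasmic channels open in myelin, had 9745, 17998 and 9132 normalised counts in CCD libraries and 5776, 6752 and 4375 in young libraries. CCD cortex_354 was far above the other CCD libraries, the groups did not overlap, and the fold change was 1.08 ± 0.27 (DESeq2 adjusted p = 0.0196). ASPA, the enzyme that breaks down N-acetylaspartate in oligodendrocytes, had 661, 1053 and 796 in CCD libraries and 349.5, 554 and 353.6 in young libraries, without overlap, for 1.004 ± 0.29. FA2H, which hydroxylates the fatty acids of myelin lipids, had 499, 904 and 405 in CCD libraries and 277, 351 and 219 in young libraries, for 1.03 ± 0.32, also without overlap. MBP, which compacts the myelin membrane, had 346663, 599596 and 228329 in CCD libraries and 200781, 155974 and 24528 in young libraries. Groups did not overlap, yet young cortex_377 was far below the other young libraries, and the fold change of 1.98 ± 0.69 went to 1.03 without it.

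Oligodendrocyte precursor genes had no common direction. All 16 were tested, with a median of -0.09, the value of the median gene, and with 3 higher and 2 lower at a nominal p under 0.05. BCAS1, expressed as precursors start to myelinate, had 23810.5, 28833 and 15484 normalised counts in CCD libraries and 10492, 6774 and 1124 in young libraries. All CCD values were above all young values and young cortex_377 was lowest by far. The fold change was 2.35 ± 0.64 (DESeq2 adjusted p = 0.0403; 1.38 without young cortex_377). OLIG1, a transcription factor of the whole lineage, had 30681, 45909 and 24123 in CCD libraries and 19134, 20215 and 5917 in young libraries, without overlap, for 1.30 ± 0.44. CCND1, a cyclin that moves dividing cells out of G1, had 112, 61.7 and 115 in CCD libraries and 158, 229 and 269 in young libraries, also without overlap, for -1.20 ± 0.37. The myelin median was 0.60, with 5 members on the higher side at a nominal p under 0.05, without CCD cortex_354, and 0.67 with 9 members without young cortex_377; without any other library it was 1.05 to 1.11.

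**Figure D4:**
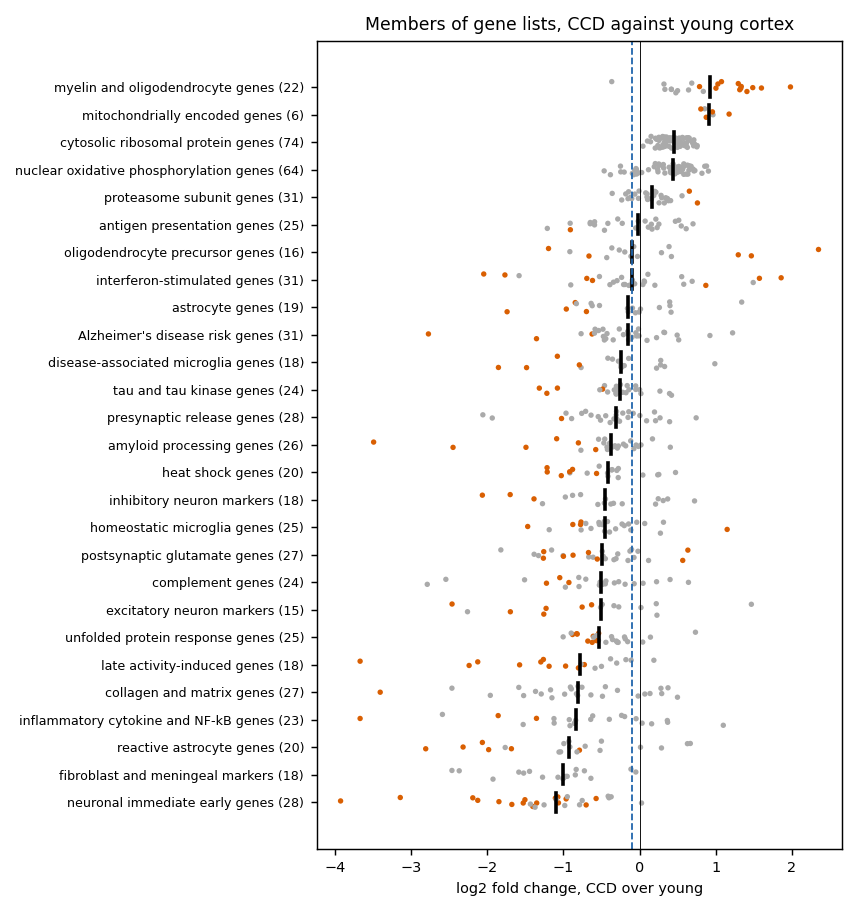
Log2 fold change, CCD over young, of each tested member of 27 gene lists (number of tested members in brackets); points in orange have a nominal limma p under 0.05, black bars are list medians and the dashed line is the median of all 19010 genes (-0.09). Lists are sorted by median, from myelin (0.92) at the top to immediate early genes (-1.10) at the bottom; a gene can stand in more than 1 list.

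Of 16 excitatory neuron markers 15 were tested. Of these, 11 had a negative fold change, the median was -0.51, and 6 were lower and none higher at a nominal p under 0.05. The median level was -0.13, -0.50 and -0.28 in CCD libraries and 0.13, -0.34 and 0.47 in young libraries. Young cortex_353 was thus inside the CCD range. RBFOX3, the splicing factor NeuN found in most neurons, had 2023, 2071 and 2539 normalised counts in CCD libraries, 4431, 3827 and 4605 in old libraries and 3127, 3074 and 4106 in young libraries. CCD values were the lowest of all 9, with a fold change of -0.63 ± 0.19 over young. RORB, a nuclear receptor of layer 4 neurons, had 131, 54.0 and 138 in CCD libraries and 255, 154 and 863 in young libraries, without overlap, for -1.70 ± 0.58, or -0.99 without young cortex_377. BCL11B, a factor of deep layer projection neurons, was scarce, with 7.56, 7.71 and 1.22 in CCD libraries and 23.8, 13.1 and 78.5 in young libraries, and a fold change of -2.46 ± 0.78. SLC17A7, whose values stand above, had -0.51 ± 0.26, with CCD cortex_354 and young cortex_353 almost equal. The list kept 3 members at a nominal p under 0.05 without CCD cortex_354 and 4 without young cortex_377, while its median ranged from -0.69 to -0.44 over the 6 leave-outs.

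Inhibitory neuron markers had a median of -0.46 over 18 tested genes, with 3 lower and none higher at a nominal p under 0.05, and DESeq2 called 2 as lower. Of the 18, 13 had a negative and 5 a positive fold change, the highest 0.72. CCD libraries lay wholly below young ones for 1 member and wholly above them for 1. The median was -0.13 without CCD cortex_354 and -0.22 without young cortex_377. GAD1 and GAD2 encode the enzymes that make GABA. GAD1 had 773, 756 and 1699 normalised counts in CCD libraries, 2590.1, 2188 and 3374 in old libraries and 2472, 1524 and 4726 in young libraries, where CCD cortex_358 was above young cortex_353, for -1.39 ± 0.42. GAD2 had 44.1, 30.8 and 111 in CCD libraries and 187, 68.5 and 900.2 in young libraries, again overlapping, for -2.07 ± 0.77 (DESeq2 adjusted p = 0.0395), or -1.07 without young cortex_377. ADARB2, a marker of interneurons from the caudal ganglionic eminence, had 99.5, 57.0 and 115 in CCD libraries and 113, 182 and 1109 in young libraries, so that young cortex_377 alone was far above CCD. Its fold change was -1.70 ± 0.69 (DESeq2 adjusted p = 0.0498) and -0.72 without that library. The list median was -0.13 without CCD cortex_354 and -0.22 without young cortex_377.

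Postsynaptic glutamate genes had a median of -0.49 over 27 tested genes, with 6 lower and 2 higher at a nominal p under 0.05. For 8 the CCD libraries lay wholly below young ones, against 8.22% of all tested genes. CACNG8, an auxiliary subunit of AMPA receptors, had 215, 133 and 166 normalised counts in CCD libraries and 314, 265 and 787 in young libraries, without overlap, for -1.26 ± 0.41. GRIN2A, an NMDA receptor subunit, had 1832, 1259.7 and 2183 in CCD libraries and 2641, 2527 and 4649.8 in young libraries, also apart, for -0.87 ± 0.28. LRRTM1, a postsynaptic adhesion protein, had 382, 450.2 and 462 in CCD libraries and 682, 514 and 916 in young libraries, for -0.67 ± 0.23. The 13 GABA-A receptor subunit genes had a median of -0.47, with 2 lower and none higher. GABRA2, an alpha subunit, had 584, 449 and 881 in CCD libraries and 1400.1, 849 and 2638 in young libraries, overlapping, for -1.25 ± 0.38.

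Presynaptic release genes were nearer to all genes, with a median of -0.30 over 28 tested genes and 1 at a nominal p under 0.05, on the lower side. SYT1, the calcium sensor of vesicle release, had 14500.2, 14706 and 16349.7 normalised counts in CCD libraries and 20136, 12143 and 31861 in young libraries, for -0.39 ± 0.30. SNAP25, its partner in membrane fusion, had 91076, 73808 and 77835 in CCD libraries and 107624, 65668 and 49212 in young libraries, for 0.20 ± 0.29, and neither gene separated the groups. Young cortex_377 carried much of the synaptic difference: without it the medians were -0.17 for postsynaptic, -0.16 for GABA-A and -0.04 for presynaptic genes. The 18 neurofilament and axon cytoskeleton genes had a median of -0.07 and 1 member, TUBB3, a neuron-specific tubulin, higher at a nominal p under 0.05. It had 20981, 22560.3 and 16047 in CCD libraries and 13799, 13275 and 12840.0 in young libraries, without overlap, for 0.56 ± 0.19.

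Genes of immature neurons had a median of -0.19 over 21 tested genes, with 1 higher and 1 lower. SOX11, a transcription factor of newborn neurons, had 57.9, 64.8 and 53.6 normalised counts in CCD libraries, 66.0, 62.8 and 86.5 in old libraries and 158, 122 and 159 in young libraries. CCD and old values overlapped and both lay below young ones, with a CCD over young fold change of -1.30 ± 0.32 (DESeq2 adjusted p = 0.0318). DCX, which binds microtubules in migrating neurons, had 363, 189.6 and 239 in CCD libraries and 287, 238 and 599 in young libraries, for -0.44 ± 0.37. Cell division genes had a median of -0.14 over 18 tested genes. MCM5, a subunit of the replicative helicase, was the 1 member at a nominal p under 0.05, with 159, 165 and 135 in CCD libraries and 74.5, 87.7 and 103 in young libraries, without overlap, for 0.79 ± 0.30.

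Among single genes with the smallest p, the clearest separation on the higher side was IL12RB2, a subunit of the interleukin-12 receptor. It had 267, 241 and 208 normalised counts in CCD libraries, 161, 166 and 164 in old libraries and 78.6, 82.6 and 67.5 in young libraries. The 3 groups were fully separate in that order, the CCD over young fold change was 1.63 ± 0.26 (DESeq2 adjusted p = 1.88e-06), and it stayed between 1.55 and 1.73 with each library left out. ARRDC2, an arrestin-domain protein of receptor trafficking, had 1908, 1462 and 1585 in CCD libraries, 763, 1137 and 1233 in old libraries and 522, 528 and 158 in young libraries. Here too the groups were separate, and the CCD over young fold change was 2.22 ± 0.41 (DESeq2 adjusted p = 0.000766).

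CYP27A1, the sterol 27-hydroxylase that opens the acidic route of bile acid synthesis, had 659, 989.9 and 889 normalised counts in CCD libraries and 446, 385 and 251 in young libraries, for 1.25 ± 0.26. GPD1, the cytosolic glycerol-3-phosphate dehydrogenase, had 549, 880.4 and 627 in CCD libraries and 275, 368 and 228 in young libraries, for 1.24 ± 0.26. GLS2, a glutaminase, had 1297, 1468 and 1117 in CCD libraries and 815, 638 and 665 in young libraries, for 0.87 ± 0.19. For all 3 the old libraries were within or near the CCD range, the CCD and young libraries did not overlap, and DESeq2 made a call (adjusted p of 0.00497, 0.00659 and 0.00702).

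DNAH10, a dynein heavy chain of motile cilia, had 563, 749 and 546 normalised counts in CCD libraries, 299.9, 284 and 319 in old libraries and 204, 362 and 201 in young libraries. MAPK12, a stress-activated p38 kinase, had 1117, 933 and 1352 in CCD libraries, 549.6, 449 and 599.7 in old libraries and 575, 532 and 293 in young libraries. AIF1L, an actin-bundling protein, had 6604, 8377 and 5891 in CCD libraries, 4874, 3330.4 and 3606 in old libraries and 3026, 3215 and 1287 in young libraries. In these 3 genes every CCD library was above every old and every young library. The fold changes over young were 1.32 ± 0.27, 1.32 ± 0.28 and 1.57 ± 0.33, with DESeq2 adjusted p of 0.00659, 0.00529 and 0.00659. CDC42EP2, an effector of the GTPase CDC42, had 603, 680.0 and 680.2 in CCD libraries and 348, 357 and 191 in young libraries, for 1.18 ± 0.26 (DESeq2 adjusted p = 0.00687), with old libraries within or near the CCD range at 682, 659 and 698. TEX45 completes the 12 genes with HAPLN2 and NCCRP1, with 975, 1431 and 692 in CCD libraries and 238, 521 and 154 in young libraries, for 1.88 ± 0.41 (DESeq2 adjusted p = 0.00849).

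The size of their change named NCCRP1, HOXD1, BEST1 and IGLL5. NCCRP1 had 149, 72.5 and 126 normalised counts in CCD libraries and 9.31, 4.03 and 33.0 in young libraries, for 3.21 ± 0.66 (DESeq2 adjusted p = 0.00647). HOXD1, a homeobox factor, had 41.6, 114 and 54.9 in CCD libraries and 12.4, 20.2 and 7.34 in young libraries, for 2.28 ± 0.55 (DESeq2 adjusted p = 0.0123). BEST1, a chloride channel, had 85.7, 163.4 and 102 in CCD libraries and 4.14, 51.4 and 48.4 in young libraries, for 2.26 ± 0.79, or 1.16 without young cortex_270. IGLL5, an immunoglobulin lambda-like gene, had 2.52, 143 and 9.75 normalised counts in CCD libraries, nearly all of it in CCD cortex_354, and was listed at 0 in all 3 young libraries, where 3 reads would be 2.20 to 3.10 normalised counts. It is given without a fold. With BCAS1 above, these are the 5 genes of largest change with groups that did not overlap.

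On the lower side, CXADR, a junctional adhesion protein that serves as the coxsackievirus and adenovirus receptor, had 391, 384 and 468 normalised counts in CCD libraries, 500.3, 706 and 607 in old libraries and 1072, 872 and 988 in young libraries. The groups were separate in that order, and the CCD over young fold change was -1.24 ± 0.21 (DESeq2 adjusted p = 0.000494), between -1.33 and -1.17 with each library left out. SOX9, a transcription factor of astrocytes and glial progenitors, had 207, 156 and 278 in CCD libraries, 504, 518 and 463 in old libraries and 910.0, 394 and 941 in young libraries. Each CCD library was below each old and young one, while young cortex_353 was within reach of the CCD values. Its fold change was -1.74 ± 0.35 (DESeq2 adjusted p = 0.00225).

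IL17RD, a membrane inhibitor of fibroblast growth factor signalling, had 0, 3.08 and 2.44 normalised counts in CCD libraries, 24.2, 11.4 and 28.3 in old libraries and 21.7, 36.3 and 117 in young libraries. CCD was at or under the level of 3 reads, so the fold change of -4.27 ± 0.83 (DESeq2 adjusted p = 0.00453) depends on the pseudocount. B3GALT1, a galactosyltransferase of glycan chains, had 330.0, 204 and 291 in CCD libraries and 856, 506 and 981 in young libraries, for -1.48 ± 0.29 (DESeq2 adjusted p = 0.00453). NFYA, the regulatory subunit of the CCAAT-binding factor, had 122, 133 and 139 in CCD libraries and 453, 261 and 341 in young libraries, for -1.38 ± 0.27 (DESeq2 adjusted p = 0.00498). ZFP36L1, which destabilises AU-rich messenger RNAs, had 852, 1096 and 1516 in CCD libraries and 3993, 2569 and 2145 in young libraries, for -1.32 ± 0.28 (DESeq2 adjusted p = 0.013). All 4 genes had groups that did not overlap.

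WDR3, a factor of small ribosomal subunit assembly, had 373, 373 and 468 normalised counts in CCD libraries and 827, 659 and 911 in young libraries, for -0.98 ± 0.20. BRINP3 had 288, 169.6 and 178 in CCD libraries and 501.5, 449 and 646 in young libraries, for -1.35 ± 0.26. HUNK, a protein kinase, had 322, 196 and 208 in CCD libraries and 784, 489 and 611 in young libraries, for -1.38 ± 0.28. In both genes CCD cortex_163 was the highest CCD library and still below every young one. FRMD6, a regulator of the Hippo pathway, had 93.2, 125 and 221 in CCD libraries and 363, 393 and 582 in young libraries, for -1.66 ± 0.34. MOXD1, a monooxygenase-like protein, had 188, 182 and 717 in CCD libraries and 1101, 1388 and 2149 in young libraries. CCD cortex_358 was well above the other CCD libraries, the fold change was -2.35 ± 0.46 and, without that library, -3.00, the 1 gene that limma called in any fit with 1 library left out (adjusted p = 0.0242). MET, the hepatocyte growth factor receptor, had 5.04, 12.3 and 91.4 in CCD libraries and 202, 119 and 585 in young libraries, for -3.63 ± 0.93. RBM24, an RNA-binding splicing regulator, had 0, 10.8 and 17.1 in CCD libraries and 47.6, 49.4 and 167 in young libraries, for -3.64 ± 0.98. In both genes CCD cortex_163 was lowest and young cortex_377 highest. DESeq2 called MET, RBM24 and all 12 genes of smallest p on this side, TAMALIN among them.

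Astrocyte identity genes had a median of -0.15 over 19 tested genes, with 4 lower and none higher at a nominal p under 0.05. GFAP, the intermediate filament protein of astrocytes, had 48559, 54185 and 48153 normalised counts in CCD libraries and 58301, 53963 and 39239.8 in young libraries, for 0.01 ± 0.24. SLC1A3, a glutamate transporter, had 11328, 8668 and 12536 in CCD libraries and 22319.5, 13267 and 30777 in young libraries, for -0.96 ± 0.29. AQP4, the water channel of astrocyte endfeet, had 4459, 4763 and 4115 in CCD libraries and 7322, 4864 and 10484 in young libraries, for -0.70 ± 0.26, and young cortex_353 was close to CCD in both genes. Reactive astrocyte genes had a median of -0.92 over 20 tested genes, with 6 lower and none higher at a nominal p under 0.05. EMP1, a membrane protein of injured tissue, had 137, 97.1 and 534 in CCD libraries and 1430.1, 614 and 605 in young libraries, for -2.07 ± 0.61. STAT3, the factor that drives the reactive state, had 1109, 1082 and 1469 in CCD libraries and 2913, 1665 and 1881 in young libraries, for -0.79 ± 0.23. The groups overlapped in neither gene. SERPINA3, a secreted protease inhibitor, had 208, 241 and 299 in CCD libraries and 7363, 532 and 478 in young libraries, and its fold change of -2.32 ± 0.84 was -1.03 without young cortex_270. The lowest median levels of reactive astrocyte genes in the 6 libraries were -0.66 in CCD cortex_163 and -0.34 in CCD cortex_354. The highest was 0.81 in young cortex_270, the library of lowest meningeal level. The groups overlapped, with CCD cortex_358 at 0.50 and young cortex_377 at 0.32. Old libraries had -0.47, -0.68 and -0.60. The list median was -0.79 with the meningeal level as a covariate, and without the 3 libraries of high meningeal level 11 members were lower and 1 higher. Without CCD cortex_163, 2 members were lower.

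Homeostatic microglia genes had a median of -0.46 over 25 tested genes, with 21 negative, and 4 lower and 1 higher at a nominal p under 0.05, and 1 lower without CCD cortex_163 or CCD cortex_354. CSF1R, the receptor microglia need to survive, had 1159, 914 and 1995 normalised counts in CCD libraries, 1184, 1043 and 1091 in old libraries and 1929.6, 2459 and 2210.4 in young libraries. CCD cortex_358 was just above young cortex_270, and the fold change was -0.77 ± 0.26. P2RY13, a purine receptor, was the exception on the higher side, with 191, 146 and 102 in CCD libraries and 81.7, 41.3 and 75.6 in young libraries, without overlap, for 1.15 ± 0.39. Disease-associated microglia genes had a median of -0.24 over 18 tested genes, with 4 lower and none higher, and -0.08 without CCD cortex_163 or young cortex_353. TREM2, a lipid receptor of microglia and an Alzheimer's disease risk gene, was scarce, with 8.82, 67.8 and 34.1 in CCD libraries and 74.5, 64.5 and 22.7 in young libraries, for -0.77 ± 0.72 and 0.01 without CCD cortex_163.

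Complement genes had a median of -0.50 over 24 tested genes, with 3 lower and none higher, against 8.74% lower among all tested genes. C3, the central component, had 3074, 3119 and 3308 normalised counts in CCD libraries, 1427, 1881 and 1367 in old libraries and 5736, 3227 and 2544 in young libraries. CCD libraries were close to each other, above every old library and inside the young range, with -0.19 ± 0.27 over young. The receptors for its fragment and for that of C5 lay lower. C3AR1 had 137, 193 and 194 in CCD libraries and 414, 352 and 245 in young libraries, for -0.93 ± 0.32. C5AR1 had 41.6, 38.5 and 69.5 in CCD libraries and 90.0, 97.8 and 116 in young libraries, for -1.05 ± 0.34. Neither receptor had groups that overlapped. The complement median was -1.01, with 7 lower members, without CCD cortex_358 and -0.32 without CCD cortex_354.

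Inflammatory cytokine and NF-kB genes had a median of -0.84 over 23 tested genes of 30 listed, with 3 lower and none higher. It was -0.47 without young cortex_270, -0.49 without CCD cortex_163 and -0.51 over genes with a mean of at least 50. VCAM1, an adhesion protein of activated endothelium and astrocytes, had 289.7, 539.6 and 818 normalised counts in CCD libraries, 515, 483 and 691 in old libraries and 3633, 984 and 1713 in young libraries. CCD and old libraries lay below all young ones, with young cortex_270 highest, and the CCD over young fold change was -1.86 ± 0.47 (DESeq2 adjusted p = 0.0158). Antigen presentation genes had a median of -0.02 over 25 tested genes, with 1 lower, TAP2, a subunit of the peptide transporter, at 545, 396 and 674 in CCD libraries and 1014, 839 and 1136 in young libraries, for -0.91 ± 0.23.

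Interferon-stimulated genes had a median of -0.10 over 31 tested genes, with 3 higher and 4 lower. IFI6, a mitochondrial interferon-induced protein, had 2386, 1883 and 1550.5 normalised counts in CCD libraries and 1215, 1509.6 and 619.9 in young libraries, without overlap, for 0.87 ± 0.31. EIF2AK2, the kinase that responds to double-stranded RNA, had 20.2, 6.17 and 47.5 in CCD libraries and 44.5, 74.6 and 150.4 in young libraries, overlapping, for -2.05 ± 0.71. Cytosolic nucleic acid sensing genes had a median of -0.01 over 20 tested genes, with 2 higher and 1 lower. CGAS, the DNA sensor upstream of STING, had 30.2, 37.0 and 41.4 in CCD libraries, 15.03, 17.1 and 8.57 in old libraries and 7.24, 10.1 and 19.1 in young libraries. No CCD library overlapped either group, and the fold change over young was 1.59 ± 0.57. STING1, its adaptor, had 379, 452 and 330.3 in CCD libraries, 168, 129 and 111 in old libraries and 357, 415 and 226 in young libraries, so that CCD and young overlapped above the old level, with 0.25 ± 0.30. TLR8, an RNA sensor of endosomes, had 0, 10.8 and 45.1 in CCD libraries and 79.6, 70.5 and 63.8 in young libraries, for -3.14 ± 1.10, which went to -1.63 without CCD cortex_163, the library at 0.

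Amyloid processing genes had a median of -0.37 over 26 tested genes, with 23 negative, and 6 lower and none higher at a nominal p under 0.05. Without young cortex_377 the median was -0.17 with 4 lower members, and without CCD cortex_354 3 members were lower. APP, the amyloid precursor, had 19129, 24121 and 27112 normalised counts in CCD libraries, 36654, 39020.0 and 40158 in old libraries and 33009.8, 23549 and 38731 in young libraries. CCD and young overlapped, with -0.42 ± 0.24. APH1B, a subunit of gamma-secretase, had 8.82, 30.8 and 17.1 in CCD libraries and 49.6, 52.4 and 340.4 in young libraries, without overlap, for -2.45 ± 0.72 (DESeq2 adjusted p = 0.0205), or -1.55 without young cortex_377. MME, neprilysin, which degrades amyloid peptide, had 1.26, 0 and 20.7 in CCD libraries and 21.7, 38.3 and 77.8 in young libraries, for -3.49 ± 1.03, at counts where the fold depends on the pseudocount. Tau and tau kinase genes had a median of -0.26 over 24 tested genes, with 4 lower and none higher, and -0.14 with 1 lower without young cortex_377. MAPT, tau itself, had 4314, 4647 and 4599 in CCD libraries and 5523, 4450.3 and 7105 in young libraries, overlapping, for -0.31 ± 0.19. CDK5R1, which switches on the kinase CDK5, had 753, 971 and 1062 in CCD libraries and 1328, 1145 and 4831 in young libraries, for -1.08 ± 0.44, or -0.42 without young cortex_377.

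Alzheimer's disease risk genes had a median of -0.16 over 31 tested genes of 36 listed, with 3 lower and none higher. That count was near the share of all tested genes that were lower, 8.74%. APOE, the lipid carrier with the strongest common risk allele in people, had 47479, 76462 and 67321 normalised counts in CCD libraries and 44646, 60175 and 45887 in young libraries, overlapping, for 0.33 ± 0.28. CLU, clusterin, a secreted chaperone, had 15218, 16679.7 and 52438 in CCD libraries and 30433, 92378 and 79152 in young libraries. Its 3 highest values were the 3 libraries of high meningeal level, and the fold change of -1.35 ± 0.50 was -0.93 without them.

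Unfolded protein response genes had a median of -0.54 over 25 tested genes, with 22 negative and 8 lower and none higher at a nominal p under 0.05, and the median stayed between -0.53 and -0.42 with each library left out. Without CCD cortex_354 or young cortex_270, 3 members were lower. HSPA5, the main chaperone of the endoplasmic reticulum, had 4154, 3512 and 4759 normalised counts in CCD libraries, 4669.9, 4259 and 4567 in old libraries and 10562, 6757 and 6074 in young libraries. CCD and old overlapped, both below young, with -0.88 ± 0.22 for CCD over young. CALR, a calcium-binding chaperone there, had 5788, 5729.5 and 8336 in CCD libraries and 9504, 11485 and 9238 in young libraries, without overlap, for -0.62 ± 0.20. Heat shock genes had a median of -0.42 over 20 tested genes, with 6 lower and none higher, and -0.18 without young cortex_270, with 3 lower and 3 higher. DNAJB5, a co-chaperone of HSP70, had 928, 697 and 937 in CCD libraries and 1792, 1709 and 1339 in young libraries, for -0.92 ± 0.23. HSPH1, its exchange factor, had 3386, 2527 and 3233 in CCD libraries and 14712, 3798 and 6204 in young libraries, for -1.22 ± 0.39, or -0.68 without young cortex_270. That library had the highest heat shock level of all 9, and without it 3 heat shock and 3 unfolded protein response members were at a nominal p under 0.05 on the lower side.

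Mitochondrially encoded genes had a median of 0.92 over the 6 of 13 that passed the filter on low values. Of these 6, 4 had a nominal p under 0.05. The rest of the 13 fell below that filter, although tested members such as CYTB were among the most abundant genes. How reads were counted is not given, and why the rest had low values was not tested. The median and the summed share below describe the 6 tested genes and not mitochondrial transcripts as a whole. The median was 0.57 without young cortex_377, and 1 member had a nominal p under 0.05 without that library, without CCD cortex_354 or without CCD cortex_358, and 2 without young cortex_270. ND6, a subunit of complex I, had 40835, 90045 and 80360.3 normalised counts in CCD libraries and 30480.5, 40481 and 20733 in young libraries. CCD cortex_163 was just above the highest young library, and the fold change was 1.18 ± 0.36 (DESeq2 adjusted p = 0.0387). CYTB, of complex III, had 374105, 523882 and 376210 in CCD libraries and 228857, 343244 and 151867 in young libraries, without overlap, for 0.88 ± 0.37, or -0.10 after quantile normalization, which levels the most abundant genes. Summed, the 6 tested genes took 6.45%, 9.11% and 6.97% of gene reads in CCD libraries, 3.15%, 4.52% and 2.98% in old libraries and 4.20%, 5.75% and 2.55% in young libraries.

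Ribosomal protein genes were all on the higher side, with a median of 0.45 over 74 tested genes, but none had a nominal p under 0.05. RPS24, of the small subunit, had 17011, 12506 and 11149.7 normalised counts in CCD libraries and 11671, 11436 and 4058 in young libraries, for 0.71 ± 0.38. Nuclear oxidative phosphorylation genes had a median of 0.44 over 64 tested genes, again with none at a nominal p under 0.05. Both rested on young cortex_377: without it the medians were -0.06 and 0.03. Proteasome subunit genes had a median of 0.16 over 31 tested genes, with 2 higher and none lower. PSMC5, a regulatory ATPase, had 12326, 10417 and 10165 in CCD libraries and 8488, 8027 and 3939.6 in young libraries, without overlap, for 0.76 ± 0.27, or 0.40 without young cortex_377.

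Lysosome genes had a median of -0.11 over 26 tested genes, with 5 lower and none higher. HEXA, a hexosaminidase subunit that degrades gangliosides, had 917, 779 and 1108 normalised counts in CCD libraries and 1476, 1367 and 1543 in young libraries, for -0.66 ± 0.19. CTSB, cathepsin B, had 2508, 1801 and 3409 in CCD libraries and 4098, 4044 and 4821 in young libraries, for -0.79 ± 0.23. The groups overlapped in neither gene. Cholesterol synthesis genes had a median of -0.11 over 23 tested genes, with 2 lower, and glycolysis genes had -0.18 over 20, with 1 lower, HK2, a hexokinase, at 8.82, 30.8 and 48.8 in CCD libraries and 1416, 53.4 and 40.3 in young libraries, where young cortex_270 alone stood apart. The p53 and senescence genes had a median of 0.03 over 22 tested genes, with 2 lower and none higher. This too was near the 8.74% lower among all tested genes. CDKN1A, the p21 cell cycle inhibitor, had 542, 233 and 461 in CCD libraries and 1694, 572 and 934 in young libraries, without overlap, for -1.32 ± 0.40. Circadian clock genes had a median of -0.27 over 18 tested genes, with 2 lower. CLOCK, a core activator of the rhythm, had 484, 463 and 505 in CCD libraries and 761, 638 and 1188 in young libraries, without overlap, for -0.78 ± 0.24. Glucocorticoid-induced genes had a median of 0.13 over 17 tested genes, with 1 higher and 3 lower.

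Vessel and tissue surface genes followed single libraries more than the groups. Endothelial markers had a median of -0.49 over 20 tested genes with 1 lower, pericyte and smooth muscle markers -0.18 over 15 with 1 lower, and collagen and matrix genes -0.81 over 27 with 1 lower, and none of these lists had a member higher. All 18 tested fibroblast and meningeal markers had a negative fold change, with a median of -1.001 and none at a nominal p under 0.05. That median was 0.12 without young cortex_353, -2.92 without young cortex_270 and 1.54 without the 3 libraries of high level. Endothelial genes had a median of -0.13 without CCD cortex_163 and -0.88 without CCD cortex_358, the members lower at a nominal p under 0.05 numbering 10 in that last fit. With 1 library left out, the pericyte median ran from -0.94 without young cortex_270 to 0.33 without young cortex_353, and the collagen median from -1.42 without CCD cortex_358 to -0.30 without young cortex_353. Ependymal and choroid plexus markers had a median of -0.35 over 8 tested genes of 13 listed, and blood cell markers -0.13 over 11 of 26, each with 1 lower and none higher.

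**Figure D5:**
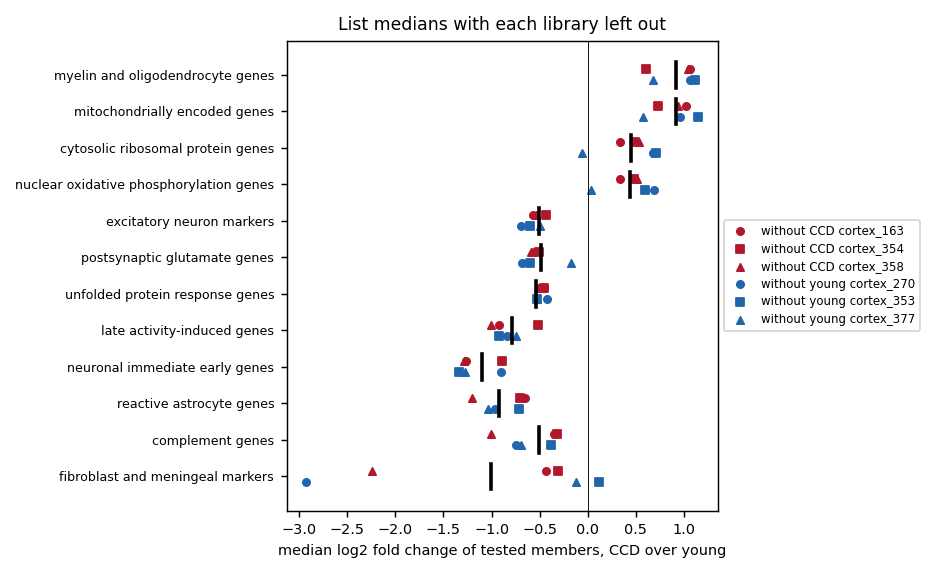
Median log2 fold change, CCD over young, of the tested members of 12 lists with all libraries (black bar) and with each CCD library (red) or young library (blue) left out; circle, square and triangle follow the order in which the libraries of a group are named. The activity lists stay negative (-1.34 to -0.52) and myelin positive (0.60 to 1.11) in all 6 fits, whereas ribosomal protein genes reach -0.06 without young cortex_377 and meningeal markers run from -2.92 to 0.12.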

How the data were processed

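RNA was measured in 6 prefrontal cortex libraries, 3 of CCD and 3 of young dogs, with 3 old cortex libraries in the same model. Per the labels' protocols, RNA was isolated with a Zymo Direct-zol kit and polyadenylated libraries (Tecan) were read on a NovaSeq. Per the submitters' processing notes, STAR and DESeq2 were used. Not given in the sources used here are their versions, the build, the gene models, how reads were counted and whether strand was used, so reads of overlapping or near-identical genes cannot be assigned with certainty. The authors deposited a signal per gene and transposable element family that the sheet calls normalized counts, with the same total, 23009609, in each cortex library. Each value was a whole number times a factor of its library (tolerance 0.01, 100% of values), and dividing by that factor gave the reads; in young cortex_353 that factor is close to 1, which makes the check weak there. No column of per-sample values was left without a sample (0).

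The 822 transposable element families were left out. Genes with a mean of at least 10 over the 9 libraries (19010 of 34981) were tested as log2(value + 1) in R 4.3.3 with limma 3.58.1, moderated with a trend, contrast CCD minus young, with Benjamini-Hochberg adjustment over all tested genes at 0.05. Fold changes are on this log2 scale, and those of low genes depend on it in either direction. Beside DESeq2 the change was smaller for IL17RD (-4.27 against -4.94) and larger for TLR8 (-3.14 against -1.88). Recovered reads were tested with edgeR 4.0.16 and DESeq2 1.42.0 as alternatives (78 adjusted p not given by DESeq2). The code was tested on simulated data. The members and the 43 gene lists were chosen with earlier results of these data known, so lists carry counts and medians but no test, and an unadjusted p is a description. Genes named are the 12 of smallest p with separate groups in each direction (among those with a symbol), the 5 of largest change with separate groups and a group mean of at least 50, up to 4 of smallest p in each list, and 14 taken whatever their values, of which 1 is not reported here; FOS and ARC were added after their values were seen. Symbols are those of the files, 99.3% of them in the RefSeq table of the assembly UU_Cfam_GSD_1.0. Alternatives were other pseudocounts, filters, scalings, tools, weights, a meningeal covariate, leaving out libraries and, chosen after seeing the data, thinning reads to the shallowest library and repeating DESeq2 with libraries left out.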

Additional observations from a re-analysis of the deposited data

How the results depend on the processing

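No paired analysis was possible because the CCD and young cortex libraries share no replicate number in the labels. The count of 0 genes past the adjusted threshold held in limma under every alternative listed above, except 1 lower gene without CCD cortex_358 and 247 higher and 407 lower genes without CCD cortex_358, young cortex_353 and young cortex_377, where young cortex_270 is the only young library and is assumed to vary like the other groups. DESeq2 called 89 higher and 119 lower genes with all libraries, and 866 higher and 848 lower without those 3. With 1 library left out it called 11 to 716 higher and 8 to 1134 lower genes, namely 11 and 8 without CCD cortex_354, 34 and 26 without CCD cortex_163, 60 and 83 without young cortex_377, 287 and 468 without young cortex_270, 716 and 1134 without young cortex_353, and 475 lower without CCD cortex_358. At an unadjusted p under 0.05, against 786 higher and 1661 lower, the counts were 442 and 938 with the CCD and young libraries alone, 373 and 816 with library weights, 1241 and 1115 after quantile normalization, 1202 and 1130 after median centring, and 1643 and 2694 without the 3 libraries. Leaving out 1 library gave 438 to 1526 higher and 854 to 2649 lower genes. They were 442 and 979 without CCD cortex_163, 438 and 854 without CCD cortex_354, 1526 and 2649 without young cortex_353, 1187 higher without young cortex_270 and 1096 lower without young cortex_377. Pseudocount 5, edgeR, TMM, the meningeal covariate, a mean of at least 50, no filter and thinning each kept both counts within 1.5 times. The causes were not tested.

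Signs turned in 6 named genes. With 1 library left out, TREM2 ran from -1.40 to 0.0065, C3 from -0.44 to 0.14, STING1 from -0.0036 to 0.43, SNAP25 from -0.061 to 0.50 and GFAP from -0.16 to 0.13. GFAP was also -0.063 with library weights, -0.021 with the meningeal covariate, -0.044 after quantile normalization and -0.18 without the 3 libraries, where SNAP25 was -0.39; CYTB was -0.10 after quantile normalization. List medians that turned, beside those of meningeal and ribosomal protein genes given above, included several near 0. With 1 library left out, oligodendrocyte precursor genes ran from -0.56 to 0.33, nucleic acid sensing genes from -0.14 to 0.093, ependymal markers from -0.66 to 0.41, glycolysis genes from -0.28 to 0.046 and p53 genes from -0.17 to 0.034. Without the 3 libraries the medians were 0.39 for precursor, 0.29 for astrocyte, -0.22 for proteasome, -0.42 for p53 and -0.48 for glucocorticoid-induced genes. Nucleic acid sensing genes were 0.066 in DESeq2, 0.064 under TMM, 0.090 under median centring and 0.091 under quantile normalization. Libraries held 14923391 to 31363933 reads, and genes of few reads, such as IL17RD, carry a large counting error. How much of the spread between libraries is counting error was not tested.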
